A study of Mus musculus with 8 samples.

Results

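The MAP kinase feedback inhibitors examined here were 10 genes, listed by symbol with no threshold on their values, though with earlier results of these data known. They were the dual-specificity phosphatases *Dusp1*, *Dusp2*, *Dusp4*, *Dusp5*, *Dusp6* and *Dusp10*, the Sprouty genes *Spry1* and *Spry2*, and the Spred genes *Spred1* and *Spred2*. All 10 were present among the 48321 gene symbols of the count tables. The data were total RNA-seq of CD8+ T cells from the spleen of C57BL/6 mice, with 2 libraries in each of 4 groups: WT at day 0, KO at day 0, WT at day 5 and KO at day 5 of in vitro culture. The line is *Satb1* F/F; E8I-cre, in which Cre, driven by a *Cd8a* enhancer that is active in mature CD8+ T cells, deletes floxed *Satb1*. The labels give the groups only as WT and KO, so the alleles and Cre status of the WT mice, their age and sex, the stimulus of the culture and whether the 2 libraries of a group came from separate mice are not given in the sources used here. P-values therefore measure the spread between these libraries, which may be technical.

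Antigen receptor signalling in a T cell activates Ras and then the kinases RAF, MEK and ERK, and in parallel the stress-activated MAP kinases p38 and JNK. The dual-specificity phosphatases switch MAP kinases off by removing phosphate from both residues of the activation loop, and several of their genes are themselves transcribed in response to MAP kinase signalling. Sprouty and Spred proteins act higher up and restrain the activation of Ras and RAF. Lymphocytes are known to induce many of these genes within hours of stimulation, so that the pathway limits its own output.

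Promoter sequence is shown for the 5 Dusp members that were called with culture in at least 1 genotype, to set those called higher (*Dusp6*, *Dusp1* and, in the libraries labelled KO alone, *Dusp5*) beside those called lower (*Dusp2* and *Dusp10*). It is the stretch of the 250 bases before the RefSeq start (GRCm38.p6) that lies outside the annotated exons of the gene itself and of other protein-coding genes, on the gene's strand from 5′ to 3′. The stretches were chr10:99262981-99263230 (plus strand) for *Dusp6*, chr17:26508520-26508722 (minus strand) for *Dusp1*, chr19:53528895-53529108 (plus strand) for *Dusp5*, chr2:127335909-127336158 (plus strand) for *Dusp2* and chr1:184034302-184034380 (plus strand) for *Dusp10*. The *Dusp1* and *Dusp10* stretches lie in introns of longer annotated transcripts of the same genes. The 171 bases before the *Dusp10* stretch lie in an exon of *1700056E22Rik* on the other strand and were left out, and all 214 bases of the *Dusp5* stretch lie in an exon of *AC137853.2*, an antisense RNA. Capitals mark matches to a searched motif on either strand.
Dusp6: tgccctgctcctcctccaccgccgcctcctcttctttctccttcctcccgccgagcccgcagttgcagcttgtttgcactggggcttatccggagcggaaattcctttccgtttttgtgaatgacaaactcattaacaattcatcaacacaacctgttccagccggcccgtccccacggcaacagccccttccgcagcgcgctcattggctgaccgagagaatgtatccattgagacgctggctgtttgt
Dusp1: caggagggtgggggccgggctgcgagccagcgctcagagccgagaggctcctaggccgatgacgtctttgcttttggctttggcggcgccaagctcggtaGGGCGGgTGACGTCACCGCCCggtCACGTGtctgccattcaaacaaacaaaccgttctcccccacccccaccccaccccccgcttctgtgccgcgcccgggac
Dusp5: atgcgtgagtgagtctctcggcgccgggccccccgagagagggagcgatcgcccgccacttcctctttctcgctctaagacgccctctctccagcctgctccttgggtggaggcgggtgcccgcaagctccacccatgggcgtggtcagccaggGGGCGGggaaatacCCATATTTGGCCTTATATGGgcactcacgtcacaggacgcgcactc
Dusp2: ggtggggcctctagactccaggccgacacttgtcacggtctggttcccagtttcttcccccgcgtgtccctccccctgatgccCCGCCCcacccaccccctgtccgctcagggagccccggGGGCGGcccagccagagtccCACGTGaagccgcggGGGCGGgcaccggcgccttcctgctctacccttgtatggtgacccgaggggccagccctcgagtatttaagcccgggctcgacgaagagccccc
Dusp10: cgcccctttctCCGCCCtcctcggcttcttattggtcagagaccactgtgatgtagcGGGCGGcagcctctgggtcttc

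The motifs searched on both strands of the whole 250-base window, exonic bases included, were the AP-1 site TGANTCA, the cAMP response element TGACGTCA and its core TGACG, the ETS site CCGGAAGT and its core CCGGAA, the CArG box bound by serum response factor, the E-box CACGTG, the GC box GGGCGG, the TATA box TATAAA and the NFAT core GGAAAA. Capitals leave out that core, which the full element contains, and the ETS core, which the ETS site contains. *Dusp5* held 2 adjoining CArG boxes, a motif present in 1.47% of the 32851 RefSeq promoters of the same length. *Dusp1* held the full cAMP response element, which 1.55% of all promoters hold, and an E-box. *Dusp2* also held an E-box, which was found in 6.02% of all promoters. The GC box was present in the window of 7 of the 9 members with an entry and in 32.7% of all promoters. *Dusp6* held none of the motifs in this window, and no member held the AP-1 site, the ETS site or the TATA box as spelled here. These are letter matches in a short window and say nothing on binding.

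The libraries held between 4170126 and 11117971 counts on genes, the largest being replicate 1 of KO at day 0. Levels below are in CPM, counts scaled to the library total times its TMM factor, so that 1 count was worth 0.0855 to 0.240 CPM. The 2 libraries of a group were not copies of each other, with a chi-square between their counts of 5.08 to 10.3 per degree of freedom. *Satb1*, counted over the whole gene, went against its label at day 0. It was at 97.5 and 91.3 CPM in WT against 143.6 and 124.3 CPM under the KO label, and at day 5 at 96.1 and 115.5 CPM against 56.3 and 62.1 CPM. The quasi-likelihood test of edgeR, with p-values adjusted by Benjamini and Hochberg (FDR), called the day 5 difference (log2 fold change −0.84 ± 0.15 SE, FDR = 0.0162) and not the day 0 difference (0.51 ± 0.15 SE, FDR = 0.125). Which exons the deletion removes is not given in the sources used here, so reads from the rest of the gene check nothing, and every genotype direction below rests on the labels. The 9 CD8+ T cell markers summed to 12400 to 14000 CPM at day 0 and to 9150 to 10200 CPM at day 5, while *Cd4* stayed at 0 to 0.960 CPM.

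At day 0 the level of the inhibitors was carried by 3 genes. Per kilobase of exon, *Dusp10* stood first in WT at 33.9 ± 0.32 CPM per kb (SD, n = 2), followed by *Dusp2* at 14.8 ± 0.93 and *Dusp6* at 12.8 ± 0.76, and these neighbours did not overlap between libraries. The order of these 3 was the same in the libraries labelled KO, where each of the other 7 genes had a group mean below 1 CPM per kb. By day 5 *Dusp6* stood first, at 35.98 ± 3.1 CPM per kb in WT and 47.1 ± 2.1 in those labelled KO. *Dusp10* followed by *Dusp2* came next in WT, whereas in the libraries labelled KO the ranges of *Dusp2* and *Dusp10* overlapped.

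Taken as a share of the 10 genes' summed level per kb, *Dusp10* made up 49.5% to 52.6% in the 4 day 0 libraries and 6.93% to 13.3% in the 4 day 5 libraries. *Dusp6* went the other way, from 15.8% to 20.2% at day 0 to 66.6% to 70.8% at day 5. *Dusp2* made up 22.1% to 28.3% at day 0 and 5.26% to 9.85% at day 5. The summed CPM of the 10 genes changed much less than its make-up: it was 191 and 185 in WT and 139 and 136 in those labelled KO at day 0, and 158 and 171 against 197 and 213 at day 5. The count ratio of *Dusp6* to *Dusp10*, 2 genes of nearly equal exon length whose ratio needs no library scaling, was 0.314 to 0.403 at day 0 and 5.41 to 10.5 at day 5.

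**Figure D1:**
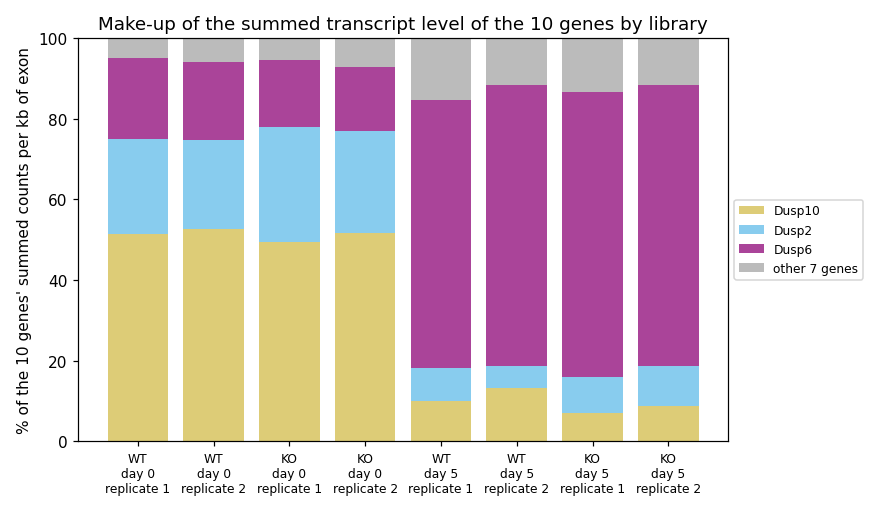
Share of the summed counts per kb of exon of the 10 genes (y axis, %) taken by *Dusp10*, *Dusp2*, *Dusp6* and the other 7 genes in each of the 8 libraries (bars). *Dusp10* takes 49.5% to 52.6% at day 0 and *Dusp6* takes 66.6% to 70.8% at day 5, in WT and labelled KO alike.

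The first comparison asked how expression differed between day 5 and day 0. Of the 8 members that passed the filter on low counts, 4 were called in WT (FDR under 0.05), where 48.3% of all 12597 genes tested were called. *Dusp1* and *Dusp6* rose (24.7% of all genes were called higher) and *Dusp2* and *Dusp10* fell (23.6% were called lower). In the libraries labelled KO 6 members were called, with *Dusp5* and *Spry1* as further rises, against 50.2% of all genes (26.2% higher and 24% lower). The median log2 fold change of the 8 was 0.6 in WT and 1.13 in those labelled KO, beside medians of −0.0394 and −0.0458 over all genes tested. *Spry1* passed that filter through its day 5 libraries, so a higher level at day 5 was a condition of its being tested. Without it, 4 of 7 members were called in WT and 5 of 7 in those labelled KO, and the median was 0.52 in both. With about every other gene called, these shares over 8 genes say nothing particular to the list. In bulk RNA, a change in the number of expressing cells and a change in RNA per cell cannot be told apart. Marker lists moved between the days as well. Of the 9 CD8+ T cell markers, 5 fell and 1 rose in WT, and 4 fell and 2 rose in those labelled KO. The gamma delta T cell and NK cell markers summed to 72.7 to 175 CPM at day 0 and 369 to 647 CPM at day 5, with 4 of 5 tested genes higher and 1 lower in each genotype. The CD4+ and regulatory T cell markers summed to 33.1 to 174 CPM at day 0 and 1970 to 2460 CPM at day 5, where *Il2ra* and *Ctla4*, which activated T cells also express, made up most of the sum. B cell markers summed to 122 to 167 CPM at day 0 and 76.6 to 90.4 CPM at day 5, and myeloid markers to 91.3 to 132 CPM and 172 to 227 CPM, mostly from *Cst3* at day 5. The part of these shifts in the members' changes was not tested.

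**Figure D2:**
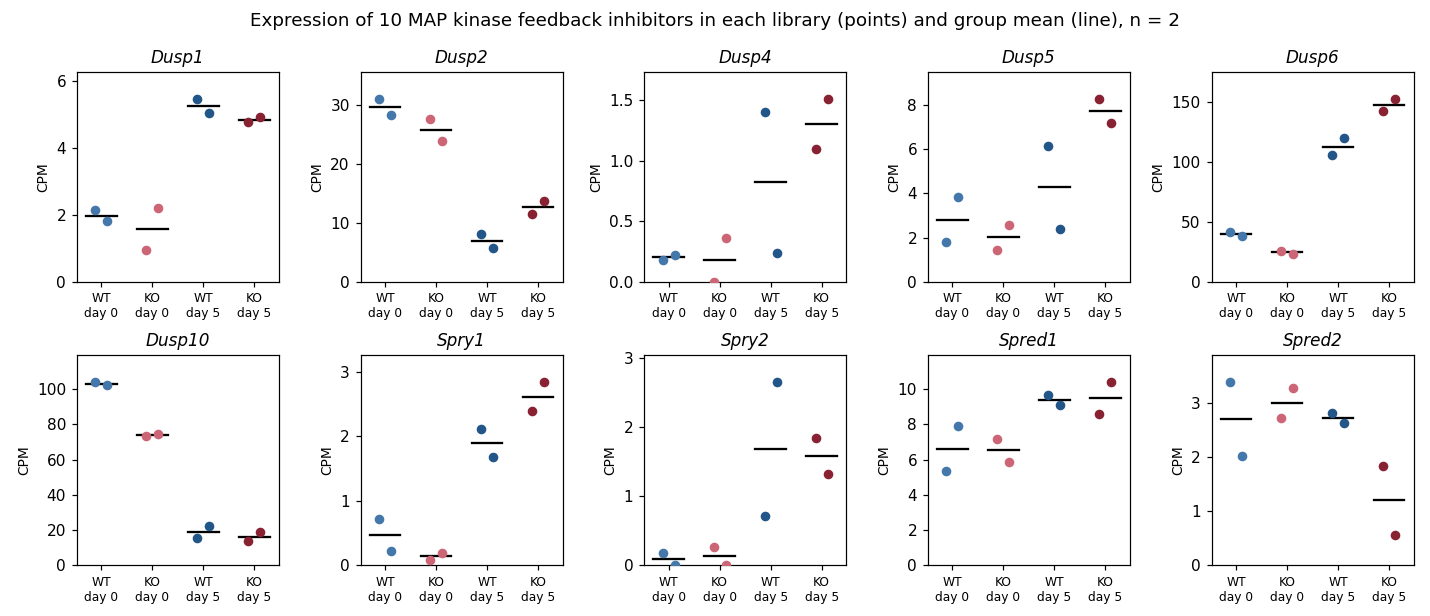
CPM (y axis, a separate linear scale from 0 for each gene) of the 10 genes in each library (points) with the group mean (line, n = 2) for WT and labelled KO at day 0 and day 5. *Dusp6* lies at 23.4 to 41.9 CPM at day 0 and 105.8 to 152.2 at day 5, and *Dusp10* at 73.5 to 103.9 at day 0 and 13.6 to 22.1 at day 5.

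*Dusp6*, on chromosome 10 (99263231 to 99267489, GRCm38), encodes a cytoplasmic phosphatase that acts on ERK. It was at 41.9 and 38.5 CPM in WT at day 0 and at 105.8 and 119.6 CPM in WT at day 5. In the libraries labelled KO it was at 25.5 and 23.4 CPM at day 0 and at 142.8 and 152.2 CPM at day 5. Every day 5 library lay above every day 0 library, and the labelled KO group was the lowest of the 4 at day 0 and the highest at day 5. It rose 2.80-fold in WT (log2 1.48 ± 0.15 SE, edgeR FDR = 4.4e-06) and 6.01-fold in those labelled KO (log2 2.59 ± 0.15 SE, FDR = 2.57e-08).

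*Dusp10*, on chromosome 1 (184013302 to 184075636), encodes a phosphatase that acts mainly on p38 and JNK. WT libraries held 103.9 and 102.5 CPM at day 0 and 15.6 and 22.1 CPM at day 5. Those labelled KO held 73.5 and 74.6 CPM at day 0 and 13.6 and 18.7 CPM at day 5. All day 5 libraries lay far below all day 0 libraries. The gene fell 5.52-fold in WT (log2 −2.47 ± 0.20 SE, edgeR FDR = 7.99e-07) and 4.59-fold in those labelled KO (log2 −2.20 ± 0.20 SE, FDR = 1.96e-06).

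*Dusp2*, on chromosome 2 (127336159 to 127338376), encodes a nuclear phosphatase first described in activated lymphocytes. At day 0 it was at 31.0 and 28.4 CPM in WT against 27.7 and 23.95 CPM under the KO label, and at 8.08 and 5.76 CPM against 11.55 and 13.8 CPM at day 5. All day 5 libraries lay below the day 0 libraries. It fell 4.23-fold in WT (log2 −2.08 ± 0.24 SE, edgeR FDR = 1.75e-05) and 2.05-fold in those labelled KO (log2 −1.03 ± 0.22 SE, FDR = 0.00189).

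The other nuclear phosphatases were expressed at a few CPM. *Dusp1*, on chromosome 17 (26505590 to 26562128), encodes a phosphatase that is induced by stress and mitogens and acts on p38, JNK and ERK. At day 0 it was at 2.14 and 1.80 CPM in WT against 0.940 and 2.19 CPM under the KO label, and at 5.45 and 5.04 CPM against 4.77 and 4.91 CPM at day 5. These values rest on 8 to 31 counts per library. The day 5 libraries lay above all day 0 libraries, and the rise was 2.63-fold in WT (edgeR FDR = 0.0304) and 3.33-fold in those labelled KO (FDR = 0.00912). The call in WT was lost without any 1 of the 4 WT libraries (FDR = 0.0686 to 0.121) and with DESeq2 (FDR = 0.076), and that in the labelled KO without replicate 1 of KO at day 0 (FDR = 0.0975).

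*Dusp5*, on chromosome 19 (53529109 to 53542431), encodes a nuclear phosphatase specific to ERK. In the libraries labelled KO it was at 1.45 and 2.56 CPM at day 0 and at 8.25 and 7.17 CPM at day 5, without overlap, and it rose 4.02-fold (log2 2.01 ± 0.51 SE, edgeR FDR = 0.00577). Without replicate 1 of KO at day 0 that call was lost (FDR = 0.0546). In WT it was at 1.78 and 3.83 CPM at day 0 and at 6.15 and 2.40 CPM at day 5, so the groups overlapped (log2 0.68 ± 0.54 SE, FDR = 0.326). In the GENCODE M21 annotation 22.1% of its exonic bases are shared with *AC137853.2* on the other strand, and since the strand setting of the counting is not given, reads of the 2 genes cannot be told apart. *Dusp4*, on chromosome 8 (34807297 to 34819894), another nuclear phosphatase of ERK and JNK, did not pass the filter, with 0 to 2 counts in the day 0 libraries and 8, 1, 6 and 8 counts in the day 5 libraries (WT first). Its summed-count ratio of day 5 to day 0 was 4.59 in WT (95% counting interval 0.95 to 43.6) and 11.2 in those labelled KO (2.57 to 101). Such intervals cover counting error only.

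*Spry1* and *Spry2* encode Sprouty proteins. *Spry1*, on chromosome 3 (37639947 to 37644598), had 4 and 1 counts in WT against 1 and 1 under the KO label at day 0, and 12 and 7 against 13 and 15 counts at day 5. The groups did not overlap between days. The summed-count ratio of day 5 to day 0 was 3.87 in WT (95% counting interval 1.4 to 13.3) and 22.3 in those labelled KO (5.63 to 194). edgeR gave an FDR of 0.00101 in those labelled KO and of 0.0545 in WT, among genes that *Spry1* joined through its high day 5 counts. In a fit with no filter on low counts the FDR was 3.89e-05 and 0.11. The log2 estimate in WT, 1.91, was 3 without replicate 1 and 1.4 without replicate 2 of WT at day 0. Of its exonic bases, 24.4% are shared with *Gm42922* on the other strand, which had no counts in 7 libraries and 2 counts in the other. *Spry2*, on chromosome 14 (105891947 to 105896819), did not pass the filter. It had 0 to 3 counts in the day 0 libraries and 4, 11, 10 and 7 counts in the day 5 libraries (WT first), a ratio of 15.3 in WT (2.35 to 644) and 9.04 in those labelled KO (2.62 to 48.2). In a fit without the filter over 34404 genes, edgeR gave *Spry2* an FDR of 0.0121 in WT and 0.013 in those labelled KO, and *Dusp4* an FDR of 0.407 and 0.0463.

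*Spred1* and *Spred2* encode relatives of Sprouty that bring neurofibromin to Ras. *Spred1*, on chromosome 2 (117121374 to 117182279), was at 5.35 and 7.89 CPM in WT against 7.18 and 5.85 CPM under the KO label at day 0, and at 9.67 and 9.12 CPM against 8.61 and 10.4 CPM at day 5. Its day 5 libraries lay above its day 0 libraries, but the test did not call it in either genotype (log2 0.52 in both, edgeR FDR = 0.192 and 0.161). *Spred2*, on chromosome 11 (19924375 to 20024026), was at 2.03 to 3.39 CPM in the 4 day 0 libraries and the 2 WT libraries of day 5, and at 1.83 and 0.566 CPM, 10 and 3 counts, in those labelled KO at day 5. That last pair was the lowest of the 8 libraries, with a log2 fold change of −1.29 ± 0.58 SE against day 0 (edgeR FDR = 0.0823), and the size of the difference turned on 1 library. Without replicate 1 of KO at day 5 it was −2.34 (FDR = 0.045), and without replicate 2, the library with 3 counts, it was −0.66 (FDR = 0.456). After correction for GC content and length it was −1.51 (FDR = 0.0446). Its values rest on 3 to 32 counts per library.

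**Figure D3:**
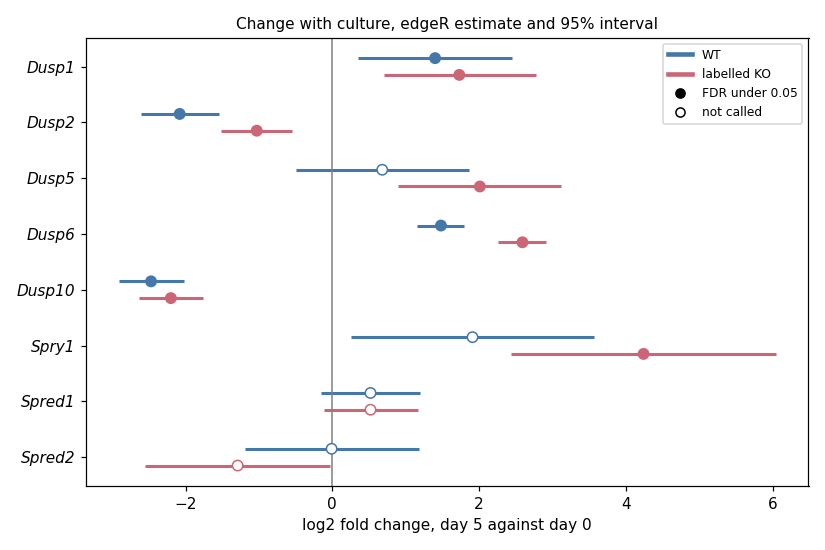
Log2 fold change of day 5 against day 0 (x axis) for the 8 members that passed the filter, for WT and for the labelled KO; points are edgeR estimates, lines 95% intervals, and filled points have an FDR under 0.05. *Dusp10* lies furthest to the left in both genotypes (−2.47 and −2.20), and the intervals of *Dusp6* in the 2 genotypes do not touch.

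The second comparison asked how the libraries labelled KO differed from WT. At day 0, 1 of the 8 members was called, *Dusp6*, which was lower in those labelled KO, where 1.8% of all genes were called (0.889% lower). It stood at 40.2 ± 2.4 CPM in WT and 24.4 ± 1.5 CPM in those labelled KO (SD, n = 2), a 1.64-fold difference (log2 −0.71 ± 0.15 SE, 95% interval −1.04 to −0.38, edgeR FDR = 0.034). The call lay close to the threshold. The FDR of *Dusp6* ran from 0.0137 to 0.287 over 17 alternatives and stayed under the threshold in 7 of them, while its log2 fold change stayed between −0.77 and −0.64. Leaving out any 1 of the 4 day 0 libraries lost the call (FDR = 0.0919 to 0.287), as did leaving out either library labelled KO at day 5 (FDR = 0.0822 and 0.0912).

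*Dusp10* was at 103.2 ± 0.98 CPM in WT and 74.1 ± 0.77 CPM in those labelled KO at day 0 (SD, n = 2), without overlap, but was not called (log2 −0.48 ± 0.18 SE, edgeR FDR = 0.252). *Dusp2* had the smaller difference (log2 −0.20 ± 0.21 SE, FDR = 0.762). *Dusp2*, *Dusp6* and *Spry1* did not overlap either. Groups of 2 libraries can fail to overlap without a difference, and the share of all genes that do so is not given here. The other 5 tested members gave FDRs of 0.485 to 0.996. The median over the 8 was −0.47 on the log2 scale, beside −0.00175 over all genes.

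Other transcripts moved with the genotype at day 0. The list of 7 CD4+ and regulatory T cell markers summed to 33.1 CPM in both WT libraries and to 163 and 174 CPM in those labelled KO, and 3 of its 6 tested genes were called higher (*Foxp3*, *Ikzf2* and *Ctla4*), against 0.913% of all genes. Its defining marker *Cd4* had at most 0.914 CPM. The list of 7 gamma delta T cell and NK cell markers summed to 72.7 to 109 CPM against 171 to 175 CPM, with 3 of 5 tested genes higher. B cell markers summed to 122 to 124 CPM against 143 to 167 CPM, with *Blk* at no count in WT, and myeloid markers to 109 to 132 CPM against 91.3 to 107 CPM, with *Cd14* and *S100a8* at no count in WT. Erythroid markers summed to at most 1.13 CPM. Of 8 heat shock genes, 6 were tested. None was called between genotypes, beside 1.8% of all genes at day 0 and 1.63% at day 5. At day 0 the 8 summed to 1550 and 2540 CPM in WT against 1630 to 1800 CPM in those labelled KO. With culture, 2 of the 6 rose and 2 fell in WT, where 48.3% of all genes were called. In those labelled KO 3 rose and 1 fell, where 50.2% were called. *Hsp90aa1* was higher and *Hsph1* lower at day 5 in both genotypes. The part of these cells or transcripts in the *Dusp6* difference was not tested.

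At day 5 none of the 8 members was called by edgeR, where 1.63% of all genes were. DESeq2 called none of the 4 members for which it gave an adjusted p-value at day 5. At an unadjusted p under 0.05 there were 2, *Dusp2* and *Dusp6*, both higher in the libraries labelled KO, beside 14.1% of all genes at that threshold. *Dusp2* was at 6.92 ± 1.6 CPM in WT and 12.7 ± 1.6 CPM in those labelled KO (SD, n = 2). Its log2 fold change was 0.85 ± 0.25 SE (95% interval 0.30 to 1.40, edgeR FDR = 0.133). *Dusp6* was at 112.7 ± 9.7 against 147.5 ± 6.7 CPM (log2 0.39 ± 0.14 SE, FDR = 0.206). The other 6 gave FDRs of 0.429 to 0.991, among them *Dusp5* (log2 0.81 ± 0.49 SE, FDR = 0.5) and *Spred2* (−1.17 ± 0.61 SE, FDR = 0.429). Leaving out 1 library moved *Dusp5* between 0.33 (without replicate 2 of WT at day 5) and 1.68 (without replicate 1 of WT at day 5). It moved *Spred2* between −2.23 (without replicate 1 of KO at day 5) and −0.57 (without replicate 2 of KO at day 5). The median over the 8 was 0.2, and 0.01 without *Spry1*, beside 0 over all genes. Markers also differed between genotypes at day 5. The gamma delta T cell and NK cell markers summed to 369 to 400 CPM in WT against 552 to 647 CPM in those labelled KO, with *Tcrg-C2* and *Tcrg-C4* called higher (edgeR FDR = 0.00778 and 0.00383). These were 2 of 5 tested genes, and the median log2 fold change of the list was −0.01. *Tcrg-C1* was level, at a mean of 92.9 CPM in WT and 92.6 CPM in those labelled KO. *Eomes* (50.0 against 38.9 CPM) and *Trdc* (36.2 against 25.3 CPM) had lower means under the KO label and were not called. *Foxp3* (FDR = 0.0193), at 23.7 and 9.60 CPM in WT against 51.5 and 61.7 CPM, and *Cd8a* (FDR = 0.0155), at 829 and 731 CPM against 1210 and 1160 CPM, were called higher as well. The CD4+ and regulatory T cell markers summed to 2060 to 2460 CPM against 1970 to 2330 CPM, B cell markers to 76.6 to 80.7 CPM against 86.7 to 90.4 CPM, and myeloid markers to 172 to 174 CPM against 203 to 227 CPM. The part of these shifts in the *Dusp2* and *Dusp6* values was not tested.

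**Figure D4:**
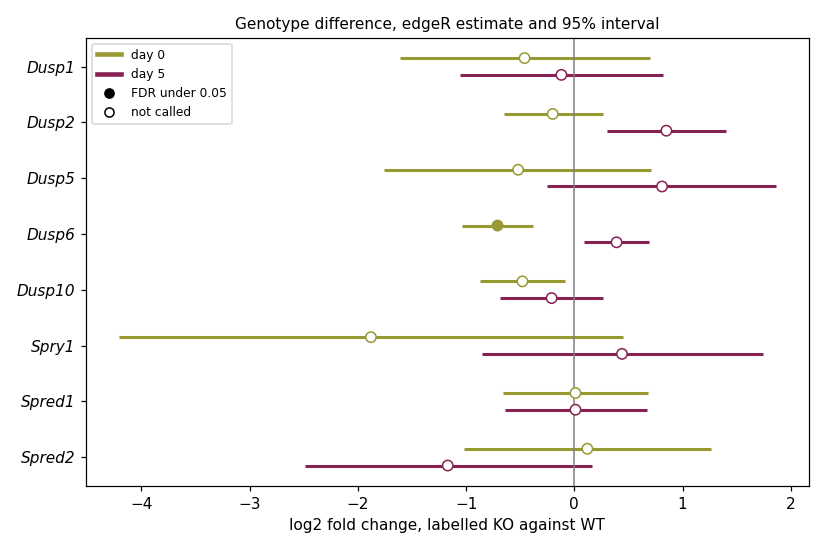
Log2 fold change of the libraries labelled KO against WT (x axis) at day 0 and day 5 for the 8 members that passed the filter; points are edgeR estimates, lines 95% intervals, and the filled point has an FDR under 0.05. *Dusp6* at day 0 (−0.71) is the only filled point, and its day 5 estimate (0.39) lies on the other side of 0.

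Whether the genotype difference depended on the day was tested as an interaction. The tool called 0.159% of all genes and none of the 8 members. An unadjusted p under 0.05 was found for 2 members and for 12.4% of all genes. *Dusp6* came closest, with a log2 difference of 1.10 ± 0.21 SE between its day 5 and day 0 genotype differences (95% interval 0.66 to 1.55, edgeR FDR = 0.0565). DESeq2 called it (FDR = 0.00285), as did edgeR without the filter on low counts (FDR = 0.0191), so this result sits at the threshold. *Dusp2* was next (1.05 ± 0.33 SE, FDR = 0.237). For *Dusp10* the difference was 0.27 ± 0.28 SE (95% interval −0.35 to 0.88, FDR = 0.767), and for *Spry1* it was 2.32 ± 1.22 SE (FDR = 0.467), or 1.25 without replicate 1 and 2.84 without replicate 2 of WT at day 0. The larger estimates of *Dusp5* and *Spry1* in the libraries labelled KO were not shown to differ from those in WT.

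The pathway around these inhibitors was described by lists of its genes. Their counts are to be read against all genes tested, of which 24.7% were called higher and 23.6% lower in WT and 26.2% and 24% in those labelled KO, with medians of −0.0394 and −0.0458. A listed gene that reached the cut of the filter on low counts in 2 libraries of just 1 of the days was tested on a condition that favours a difference between days, so each list that holds such genes is also given without them. Of 19 tested genes of the ERK cascade, 3 rose and 2 fell with culture in WT, and 2 rose and 3 fell in the libraries labelled KO, with medians of −0.02 and −0.03. *Map2k1*, which encodes a MEK kinase, rose from 15.5 ± 0.54 to 42.9 ± 1.1 CPM in WT (edgeR FDR = 3.05e-05) and from 16.8 ± 0.26 to 29.7 ± 0.71 CPM in those labelled KO (FDR = 0.00201). *Sos1* and *Sos2* encode exchange factors that load Ras with GTP. *Sos1* fell from 32.8 ± 6.8 to 12.7 ± 1.8 CPM in those labelled KO (FDR = 0.000816) and was at 23.2 ± 3.5 and 15.9 ± 5.3 CPM in WT (FDR = 0.108). *Sos2* rose from 10.6 ± 1.6 to 23.6 ± 4.6 CPM in WT (FDR = 0.00228) and was at 19.5 ± 4.3 and 19.3 ± 0.66 CPM in those labelled KO (FDR = 0.935). *Lat*, the adaptor that links the antigen receptor to Ras, fell with culture in WT from 1655 ± 158 to 1062 ± 9.9 CPM (FDR = 0.000383) and was at 1141 ± 45 and 1102 ± 30 CPM in those labelled KO (FDR = 0.72). The interaction of genotype and day was not called for *Sos1*, *Sos2* or *Lat* (FDR = 0.394, 0.207 and 0.163), so their changes were not shown to differ between genotypes. *Lat* was the 1 gene of the 5 pathway lists called between genotypes at day 0, lower in those labelled KO (FDR = 0.0269). The 5 lists held 19, 6, 16, 18 and 11 tested genes. Beside 1.8% of all genes called at day 0, this 1 call says nothing particular to the lists.

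Ras GTPase activators switch Ras off. Of 6 tested, 3 fell and none rose in WT, and 4 fell and none rose in those labelled KO, counts too small to set apart from 23.6% and 24% called lower over all genes, with medians of −0.83 and −1.07. *Rasal1* reached the cut at day 0 alone, and among the other 5 genes 2 fell in WT and 3 in those labelled KO, with medians of −0.6 and −0.58. *Rasa3* fell from 245.0 ± 10 to 67.4 ± 0.83 CPM in WT (edgeR FDR = 1.18e-07) and from 284.5 ± 15 to 84.5 ± 1.3 CPM in those labelled KO (FDR = 1.5e-07). *Rasal3* fell as well (FDR = 0.00276 and 0.000128), and *Rasa1* fell in those labelled KO (FDR = 0.0149; 0.464 in WT). *Nf1*, the neurofibromin that Spred proteins bring to Ras, was not called.

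Of 16 tested genes of the p38 and JNK cascades, 7 rose and 2 fell with culture in WT (48.3% of all genes were called), and 4 rose and 2 fell in those labelled KO (50.2%), with a median of 0.43 in both. Without *Gadd45b*, which reached the cut at day 5 alone and was not called, the medians were 0.21 and 0.36. *Gadd45g*, which binds and activates a kinase upstream of p38 and JNK, rose from 4.87 ± 1.1 to 55.7 ± 4.4 CPM in WT (edgeR FDR = 4.75e-07) and from 3.10 ± 1.5 to 62.1 ± 4.8 CPM in those labelled KO (FDR = 6.94e-08). *Mapkapk2*, a kinase activated by p38, also rose in both (FDR = 0.00351 and 0.00147), as did *Mapkapk3* (FDR = 0.0214 and 0.0012). *Mapk8*, a JNK gene, fell in both (FDR = 0.0288 and 0.00132).

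Of 18 tested ERK-responsive and effector genes, 3 rose and 8 fell in WT (48.3% of all genes were called), and 4 rose and 6 fell in those labelled KO (50.2%), with medians of −0.37 and −0.48. Of the 18, *Egr2* and *Ccnd1* reached the cut at day 0 alone and *Jun* at day 5 alone. Among the other 15, 3 rose and 7 fell in WT and 3 rose and 5 fell in those labelled KO, with medians of −0.42 and −0.41. *Egr2*, an early growth response factor tested through its high day 0 libraries, fell from 52.4 ± 6.0 to 1.45 ± 0.69 CPM in WT (edgeR FDR = 4.01e-08) and from 70.4 ± 12 to 1.39 ± 0.37 CPM in those labelled KO (FDR = 1.11e-08). *Myc* rose from 152.6 ± 13 to 538.1 ± 117 CPM in WT (FDR = 6.41e-06) and from 103.8 ± 28 to 459.8 ± 6.9 CPM in those labelled KO (FDR = 1.34e-06), and *Ier3* and *Fosl2* rose in both genotypes.

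The further Dusp, Spry and Spred genes of the tables included 11 tested, of which 4 rose and 1 fell in WT and 6 rose and 1 fell in those labelled KO, where 48.3% and 50.2% of all genes were called. Of these 11, 5 reached the cut of the filter in 2 libraries of just 1 of the days, the condition named above: *Dusp3*, *Dusp14*, *Spry4* and *Spred3* at day 5 and *Dusp12* at day 0. Among the other 6, 2 rose and 1 fell in WT and 3 rose and 1 fell in those labelled KO, with medians of 0.02 and 0.2 beside −0.0394 and −0.0458 over all genes. *Dusp22*, an atypical phosphatase without the MAP kinase binding domain, rose from 4.21 ± 0.41 to 23.5 ± 1.7 CPM in WT (edgeR FDR = 1.35e-05) and from 5.70 ± 1.8 to 33.8 ± 2.9 CPM in those labelled KO (FDR = 3.13e-06). *Dusp19* rose in both as well (FDR = 0.00016 and 0.000553). *Dusp11*, which acts on RNA, was the 1 gene that fell. None of the 11 was called between genotypes at either day, beside 1.8% of all genes at day 0 and 1.63% at day 5. So few genes could not show a difference from those shares.

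**Figure D5:**
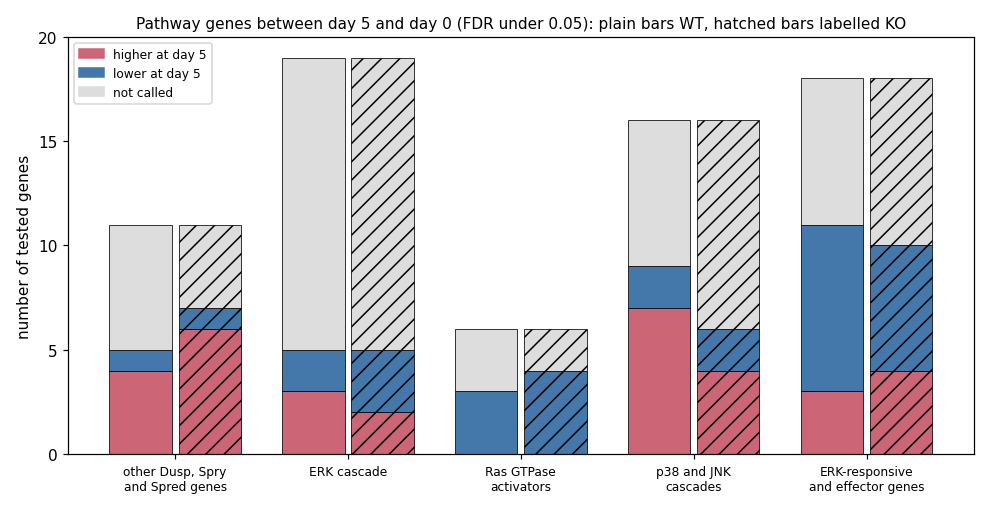
Number of tested genes (y axis) of 5 lists that were higher, lower or not called at day 5 against day 0 (edgeR FDR under 0.05), for WT (plain bars) and for the labelled KO (hatched bars). Of the 16 p38 and JNK genes, 9 are called in WT, and 4 are higher and 2 lower in the labelled KO. Of the 19 ERK cascade genes, 14 are not called in WT and 14 are not called in the labelled KO. Over all genes tested, 48.3% are called in WT and 50.2% in the labelled KO.

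For 4 members, the genes with the most similar pattern were found by Pearson's r of log2 CPM over the 8 libraries, among 7401 genes with a mean of at least 10 CPM. The libraries share their split by day, which alone gives many high values, so r is given as a description. For *Dusp6* these were *Neb* (r = 0.995), *Kif23* (0.995) and *Auh* (0.993), and 1264 genes had an r above 0.9. For *Dusp2* they were *mt-Co1* (0.991), *Lars2* (0.990) and *Arhgap1* (0.989), with 717 genes above 0.9. For *Spry1* they were *Lsm12* (0.992), *Anapc15* (0.989) and *Plod2* (0.988), with 1094 genes above 0.9. *Dusp5* had 48 such genes, headed by *Glud1* (0.979), *Gmppa* (0.978) and *Lmf1* (0.968).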

How the data were processed

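Gene counts of 8 libraries were analysed. Per the labels, RNA of sorted cells was made into libraries with a NEBNext Ultra kit and sequenced to 50 bp, and the authors deposited raw read counts per gene symbol. The submitters' processing notes name HISAT2 2.1.0, HTSeq 0.11.1 and mm10 (GRCm38). The annotation and strand setting are not given in the sources used here. Rows that name no gene (ambiguous, not unique and the like) were left out, and 21.2% to 24.5% of records lay on genes.

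Counts were filtered with filterByExpr (minimum count 10), which left 12597 genes, scaled by TMM and fitted with edgeR 4.0.16 (R 4.3.3, quasi-likelihood, two-sided, 1 mean per group over all 8 libraries). P-values were adjusted over all genes tested by Benjamini-Hochberg and called at an FDR under 0.05. The biological coefficient of variation was 15%. Members and lists were chosen with earlier results of these data known. All members are named, and of each list up to 4 called genes with the largest change and at least 10 CPM in the higher group. Promoters came from RefSeq (9 of 10 members matched), and gene positions and exon lengths from GENCODE M21. Alternatives were DESeq2 1.42.0, its size factors, unscaled library totals, no filter, 5 CPM or more in 2 libraries as the filter, a fit to just the 4 libraries compared, a replicate block, the newer edgeR quasi-likelihood form, a GC and length offset, and leaving out each library. With 2 libraries per group and 4170126 to 11117971 counts, members under about 10 counts per library are imprecise.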

Additional observations from a re-analysis of the deposited data

How the results depend on the processing

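Over 17 alternatives for each comparison, the culture calls of *Dusp2*, *Dusp6* and *Dusp10* kept their direction and stayed under the threshold in both genotypes. The number of members called at day 0 was 0 with unscaled library totals (*Dusp6* FDR = 0.0517), with no filter (0.0505), with only the 4 libraries compared (0.102) and with the GC and length offset (0.0521), and 0 to 1 with each library left out. At day 5 it was 0 throughout, and for the interaction it was 1 with no filter and with DESeq2 and 0 to 0 with each library left out. With each library left out, 3 to 4 members were called with culture in WT and 4 to 7 in the libraries labelled KO. *Spry1* in WT passed the threshold under the newer edgeR form (FDR = 0.0347). Where a member's difference was near 0 its sign turned: *Spred1* between genotypes was at −0.12 at day 0 with the offset and at −0.02 at day 5 with library totals, and *Spred2* with culture in WT was at 0.03 with DESeq2 size factors, 0.01 with only the 4 libraries, 0.04 with DESeq2 and 0.01 with the replicate block. Replicate numbers did not pair the libraries (correlation of deviations −0.0742 to 0.228), and the block changed no call of a member. With each library left out, log2 fold changes at day 0 ran from −1.05 to 0.16 for *Dusp1*, −1 to 0.09 for *Dusp5*, −0.25 to 0.3 for *Spred1* and −0.19 to 0.56 for *Spred2*. At day 5 they ran from −0.46 to 0.05 for *Dusp10* and −0.12 to 0.14 for *Spred1*, with culture in WT from −0.17 to 1.3 for *Dusp5* and −0.3 to 0.46 for *Spred2*, and for the *Dusp1* interaction from −0.3 to 0.93. Over all genes, the number called at day 0 was 434 with no filter against 227, at day 5 418 with no filter, 350 with DESeq2 and 120 with the offset against 205, and for the interaction 154, 144 and 12 against 20. With 1 library left out these counts ran from 36 (without WT replicate 1 of day 0) to 278 at day 0, from 31 (without KO replicate 2 of day 5) to 257 at day 5 and from 0 (without WT replicate 1 of day 0) to 41 for the interaction, so the shares of all genes called between genotypes depend on single libraries. With library totals the median of all genes moved to −0.17 in WT and −0.23 in those labelled KO between days, and the split of higher and lower calls went from 3112 and 2969 to 2670 and 3547 in WT and from 3296 and 3029 to 2765 and 3912 in those labelled KO. With the offset it was 2603 and 3498, and 2788 and 3769. Members under the 5 CPM filter have no value there.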
